A study of Mus musculus with 8 samples.

Results

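Of the 8 arrays of liver RNA in the study, the 4 from control mice are described here: 2 from livers of embryos at embryonic day 16.5 (E16.5) and 2 from livers of pups at postnatal day 3 (d3). They are every array whose label reads control. The remaining 4 arrays are from Cnot3KO livers of the same ages, in which Cre driven by the albumin promoter deletes *Cnot3*, a subunit of the Cnot deadenylase complex, in cells that express albumin. They share their spread with the controls in 1 fit and appear again at the end as a second set of livers. In the study the deletion was incomplete at E16.5, when Cnot3 protein was only partly reduced, and the protein was largely lost at d3. By their labels the controls were wild type, but flox/+, flox/flox, Alb-cre;+/+ and Alb-cre;flox/+ mice all count as controls in the methods of the study, and whether these livers held Cre or a floxed *Cnot3* allele is not known. The arrays of an age are called number 1 and number 2 after the labels. Nothing in the labels says that each comes from 1 animal, so p-values measure only the spread between these samples, which may be technical.

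The fetal liver is the main site of blood formation before birth, and its hepatoblasts and young hepatocytes sit among erythroblasts, megakaryocytes and granulocyte precursors. At birth the supply of glucose and amino acids through the placenta ends, milk brings mostly fat, and hepatocytes take on gluconeogenesis, fatty acid oxidation, ammonia disposal, bile formation and the metabolism of foreign compounds, while blood formation moves to bone marrow and spleen. The comparison of d3 with E16.5 therefore asks which transcripts of a normal liver differ across birth.

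RNA was hybridized to an Affymetrix mouse GeneChip, and log2 was taken of the deposited intensities. Each gene takes its brightest probe set, by the mean of all 8 arrays, which gave 16667 genes. A gene is called higher or lower when its adjusted p from limma is under 0.05 after Benjamini-Hochberg correction over all of them. Correlations were taken over the 38440 probe sets that reached the 20th percentile of at least 1 array. Control arrays of the same age correlated at 0.993 at each age, and control arrays of different ages at 0.942 to 0.946. The mean log2 intensity was 6.53 and 6.54 at E16.5 against 6.67 on each d3 array, and the 95th percentile rose from 10.61 and 10.54 to 10.90 and 10.96. The sources used here do not say if both ages went through 1 normalization, and age cannot be told apart from a scaling or a batch shared by the arrays of an age. Counts and list medians are therefore also given after quantile normalization of the 8 arrays, which makes their distributions equal, and the values of single genes where it changed the call. *Xist* was high only in number 2 of each age (13.02 and 13.03, against 6.34 and 6.85 in number 1) and the Y-linked *Eif2s3y* only in number 1 (9.22 and 9.82, against 3.65 and 3.56), so each age held 1 female-like and 1 male-like control array and the comparison of ages is balanced for sex. With 2 arrays per age, precision is limited by their number. Detection calls were not used here, so for a gene below the 20th percentile of an array it is not known whether a transcript was measured, and its fold change says how far it rose above the low end of the scale. That percentile was 4.44 and 4.50 on the control arrays at E16.5. Named genes below it on both include *Pck1*, *Rdh9*, *Cyp2c37*, *Cyp2c50*, *Inmt*, *Dio1*, *Mug1*, *Tdo2*, *Rgs5*, *Cxcl9* and *Oasl2*. Log2 fold changes are d3 minus E16.5 and are given ± the standard error of the limma fit.

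The label of the tissue fits its defining markers. *Alb*, the serum albumin gene, read 15.29 and 15.23 at E16.5 against 15.21 and 15.24 at d3, and *Ttr*, which encodes transthyretin, read 14.94 and 14.96 at E16.5 against 15.14 and 15.13 at d3. Their log2 fold changes were −0.04 and 0.18 (adjusted p = 0.816 and 0.212), and that of the apolipoprotein gene *Apoa1* was 0.31 (adjusted p = 0.0519). *Alb* was the brightest value of both d3 arrays and lay 0.029 and 0.11 below the brightest value on the log2 scale at E16.5, so these probe sets were near the top of the scale at both ages. *Apob*, which encodes the structural protein of liver lipoproteins, lay lower on the scale and rose from 11.05 and 11.05 at E16.5 to 12.51 and 12.65 at d3 (log2 fold change 1.53 ± 0.17, adjusted p = 3.6e-05).

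With the deposited values 5415 genes were higher at d3 (32.5% of those tested) and 2293 were lower (13.8%). After quantile normalization 3974 were higher (23.8%) and 4337 lower (26.0%). All of the 3974 higher genes, and 2291 of the lower ones, were called in the same direction under both scalings, and no gene was called in opposite directions. The share of calls that were higher was 70.3% with the deposited values, 60.4% after centring each array on its median, 47.8% after quantile normalization and 45.3% after centring on the 75th percentile. The median log2 fold change of all genes moved from 0.12 to −0.05 with quantile normalization. The medians of gene lists are read against those of all genes. More than 2-fold apart were 1589 higher and 265 lower genes, and more than 8-fold apart were 112 higher and 8 lower genes. Large rises thus outnumbered large falls. Of the genes called under both scalings 1120 were more than 2-fold higher and 265 more than 2-fold lower. The count of lower genes rested on single arrays more than that of higher genes: without number 1 of E16.5 it was 1418, and without number 1 of d3 it was 1475.

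**Figure D1:**
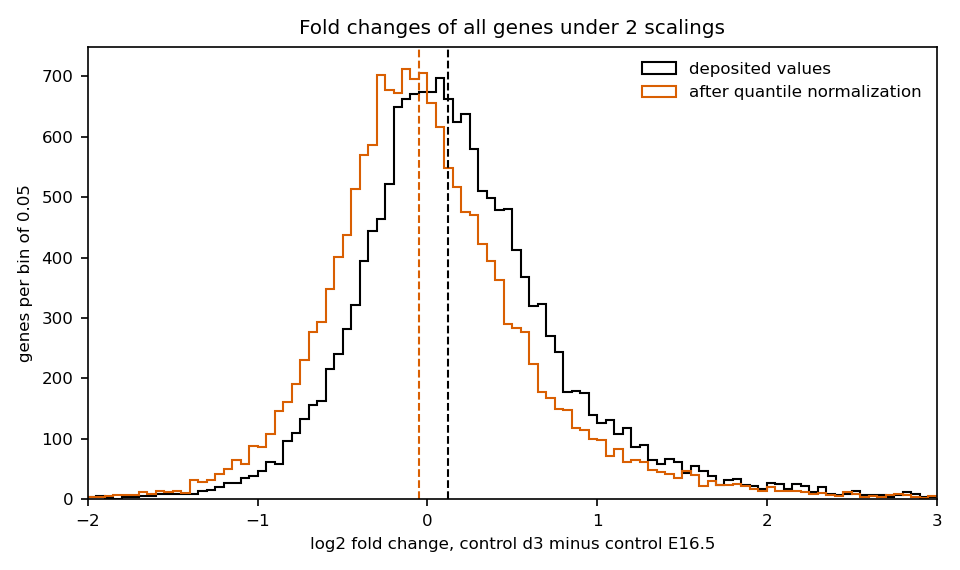
Number of genes per bin of log2 fold change (control d3 minus control E16.5) with the deposited values (black) and after quantile normalization of the 8 arrays (orange), from −2 to 3. Dashed lines mark the medians of all 16667 genes, 0.12 and −0.05, and the right tail of large rises is present under both.

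**Figure D2:**
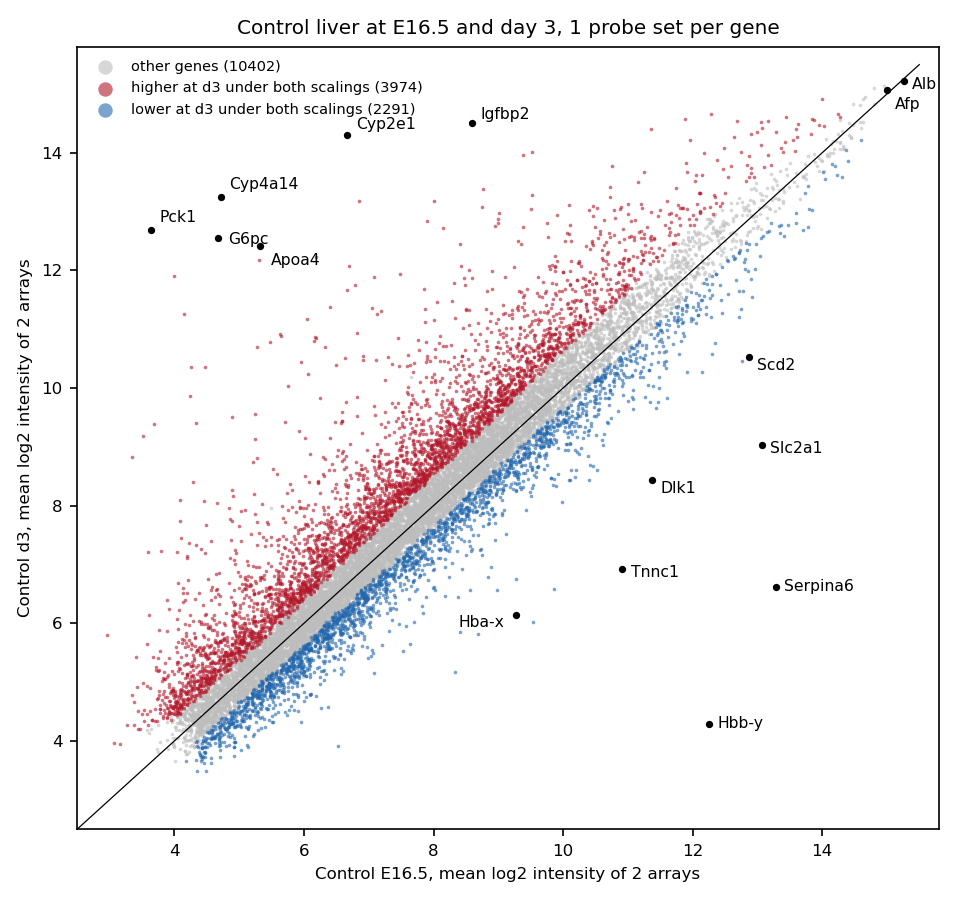
Mean log2 intensity of the 2 control arrays at d3 against that at E16.5 for 16667 genes. Genes called under both scalings are red (3974 higher) and blue (2291 lower), the line marks equal values, and black points are named genes, with *Pck1* and *Cyp4a14* farthest above the line and *Hbb-y* and *Serpina6* farthest below it.

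The largest rise was in gluconeogenesis. *Pck1*, which encodes the cytosolic phosphoenolpyruvate carboxykinase that commits carbon to glucose, read 3.58 and 3.71 at E16.5 against 12.56 and 12.82 at d3 (log2 fold change 9.04 ± 0.16, adjusted p = 2.68e-11). *G6pc*, the glucose-6-phosphatase that releases glucose from the hepatocyte, read 4.58 and 4.77 at E16.5 against 12.66 and 12.45 at d3 (log2 fold change 7.88 ± 0.18, adjusted p = 2.3e-10). The ages did not overlap for either gene, and *Pck1* lay below the 20th percentile of both E16.5 arrays. *Fbp1*, the fructose bisphosphatase of the same pathway, was already well expressed at E16.5 and rose by 2.71 ± 0.22, and the aminotransferase gene *Got1* by 2.20 ± 0.20. *Ppp1r3c*, a subunit that directs a phosphatase to glycogen, rose by 1.58 ± 0.21. Among the gluconeogenesis and glycogen genes 14 of 23 were higher and 1 lower (9 and 1 after quantile normalization), with a median log2 fold change of 0.52 and 0.24. In every such pair the deposited values come first and quantile normalization second. The lower gene was *Gpt2*, an alanine aminotransferase (−0.41). *Ppargc1a*, a coactivator of the pathway, read 7.89 and 7.94 at E16.5 against 7.87 and 8.56 at d3 and was not called (adjusted p = 0.365).

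*Pck1* is shown by its promoter, since it changed most of all genes. The window from 250 bases before to 50 bases after the start of the gene is from RefSeq (GRCm38.p6, chr2:173152823-173153122, plus strand), printed along the strand of the gene. Capitals mark the only match to TGACG, the core of the cyclic AMP response element, searched on both strands. The same letters were in the windows of 6 of 18 (33.3%) of the gluconeogenesis and glycogen genes that have a window, and of 3726 of 13269 (28.1%) of all genes tested that have one.
Pck1: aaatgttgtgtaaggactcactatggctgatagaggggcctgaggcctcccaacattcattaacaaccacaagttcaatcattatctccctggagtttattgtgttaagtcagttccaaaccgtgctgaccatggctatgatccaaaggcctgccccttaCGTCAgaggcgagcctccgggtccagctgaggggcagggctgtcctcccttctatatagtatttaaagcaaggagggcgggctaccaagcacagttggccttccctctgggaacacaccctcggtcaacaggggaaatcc

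Genes for the entry and first phosphorylation of sugars changed in both directions. *Slc2a1*, the glucose transporter of fetal cells and red cells, read 13.10 and 13.04 at E16.5 against 8.61 and 9.46 at d3 (log2 fold change −4.04 ± 0.23, adjusted p = 2.42e-07). *Slc2a2*, the transporter of mature hepatocytes, went the other way, from 10.93 and 11.07 at E16.5 to 12.97 and 12.96 at d3 (log2 fold change 1.96 ± 0.16, adjusted p = 4.26e-06). The ages did not overlap for either transporter. Among the enzymes that phosphorylate glucose, the hexokinase-like gene *Hkdc1* fell from 9.28 and 9.26 at E16.5 to 6.75 and 6.75 at d3 (log2 fold change −2.51 ± 0.14, adjusted p = 2.2e-07), and *Hk1* had a log2 fold change of −0.93 (adjusted p = 0.00023). The fructose enzymes *Khk* and *Tkfc* rose by 0.97 ± 0.13 and 2.14 ± 0.25, and *Gckr*, which encodes the regulator of glucokinase, by 1.68 ± 0.22. Over the list of glycolysis and sugar entry genes 6 of 23 were higher and 7 lower (6 and 10 after quantile normalization), and its median was 0.10 and −0.17, close to the medians of all genes. *Pkm* and *Ldha* were not called (log2 fold changes 0.07 and 0.10, adjusted p = 0.686 and 0.516). *Slc2a1* is also a transporter of erythroblasts, whose genes fell too, and the part of those cells in its fall was not tested.

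Genes of fatty acid oxidation and ketogenesis rose almost throughout: 41 of 44 were higher and 1 lower (38 and 1 after quantile normalization), with a median of 1.40 and 1.09. The lower gene was the lipid droplet protein gene *Plin4* (−0.36). *Cyp4a14*, a fatty acid omega-hydroxylase, read 4.74 and 4.70 at E16.5 against 13.08 and 13.41 at d3 (log2 fold change 8.53 ± 0.14, adjusted p = 2.68e-11), the second largest rise of all genes. *Cpt1a*, which admits fatty acids to mitochondria and is the rate-limiting step of their oxidation, read 8.38 and 8.47 at E16.5 against 12.001 and 12.16 at d3 (log2 fold change 3.65 ± 0.16, adjusted p = 3.56e-08). Arrays of an age stood close together for both genes. The peroxisomal enzymes *Acaa1b* and *Ehhadh* rose by 3.54 ± 0.21 and 3.20 ± 0.22, and the pantetheinase gene *Vnn1*, whose product recycles the precursor of coenzyme A, by 2.75 ± 0.19.

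Lipid synthesis showed no common direction. In the lipogenesis list 8 of 24 were higher and 5 lower (5 and 8 after quantile normalization), with medians of 0.20 and −0.06. The desaturases that make monounsaturated fatty acids fell: *Scd2* read 12.76 and 12.98 at E16.5 against 10.35 and 10.70 at d3 (log2 fold change −2.34 ± 0.15, adjusted p = 5.42e-07) and *Scd1* read 10.22 and 10.70 at E16.5 against 8.67 and 8.69 at d3 (log2 fold change −1.78 ± 0.19, adjusted p = 3.14e-05). The enzymes that lengthen and desaturate polyunsaturated fatty acids rose, *Elovl5* by 2.67 ± 0.14 and *Fads2* by 2.02 ± 0.21, as did *Agpat2*, an acyltransferase of triglyceride synthesis, by 1.90 ± 0.19. *Srebf1*, a regulator of lipogenesis, was not called (log2 fold change 0.25, adjusted p = 0.225). In the cholesterol synthesis list 6 of 20 were higher and 4 lower (4 and 10 after quantile normalization), and the median went from 0.06 to −0.30. *Lss*, which closes the sterol ring, fell from 10.91 and 10.47 at E16.5 to 9.44 and 9.37 at d3 (log2 fold change −1.29 ± 0.16, adjusted p = 7.1e-05), while *Sc5d* and *Hsd17b7*, which act later in the pathway, rose by 1.12 ± 0.16 and 0.81 ± 0.17.

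Among the amino acid breakdown genes 42 of 47 were higher and 2 lower (40 and 2 after quantile normalization), with a median of 1.14 and 0.87. *Tdo2*, the tryptophan dioxygenase, read 3.43 and 3.28 at E16.5 against 8.67 and 8.97 at d3 (log2 fold change 5.47 ± 0.32, adjusted p = 3.35e-07). *Tat*, the tyrosine aminotransferase whose appearance after birth is a classical sign of hepatocyte maturation, read 6.06 and 6.29 at E16.5 against 10.67 and 11.07 at d3 (log2 fold change 4.70 ± 0.16, adjusted p = 5.67e-09). For both genes the distance between the ages was far larger than that between arrays of an age. *Etnppl*, a phospholyase of ethanolamine phosphate, rose by 4.50 ± 0.14, the glyoxylate enzyme *Agxt* by 3.88 ± 0.16 and *Mat1a*, which makes S-adenosylmethionine in adult liver, by 2.69 ± 0.19. In the urea cycle and ammonia list 9 of 11 were higher and 0 lower (9 and 1 after quantile normalization). *Cps1*, the entry enzyme of the cycle, rose from 11.97 and 12.13 at E16.5 to 13.61 and 13.64 at d3, and *Otc*, the next enzyme, from 10.58 and 10.65 at E16.5 to 12.01 and 12.36 at d3 (log2 fold changes 1.57 and 1.57, adjusted p = 2.07e-05 and 1.7e-05). The mitochondrial carriers *Slc25a13* and *Slc25a15* and the ammonia channel *Rhbg* rose by 1.62, 1.61 and 1.91. The genes that were not called with the deposited values were *Nags*, whose product activates *Cps1* (0.22, adjusted p = 0.285), and *Ass1*, the argininosuccinate synthase. *Ass1* read 6.58 and 6.79 at E16.5 against 6.41 and 6.32 at d3 (−0.32, adjusted p = 0.0672), and after quantile normalization it was lower (−0.43, adjusted p = 0.0186).

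**Figure D3:**
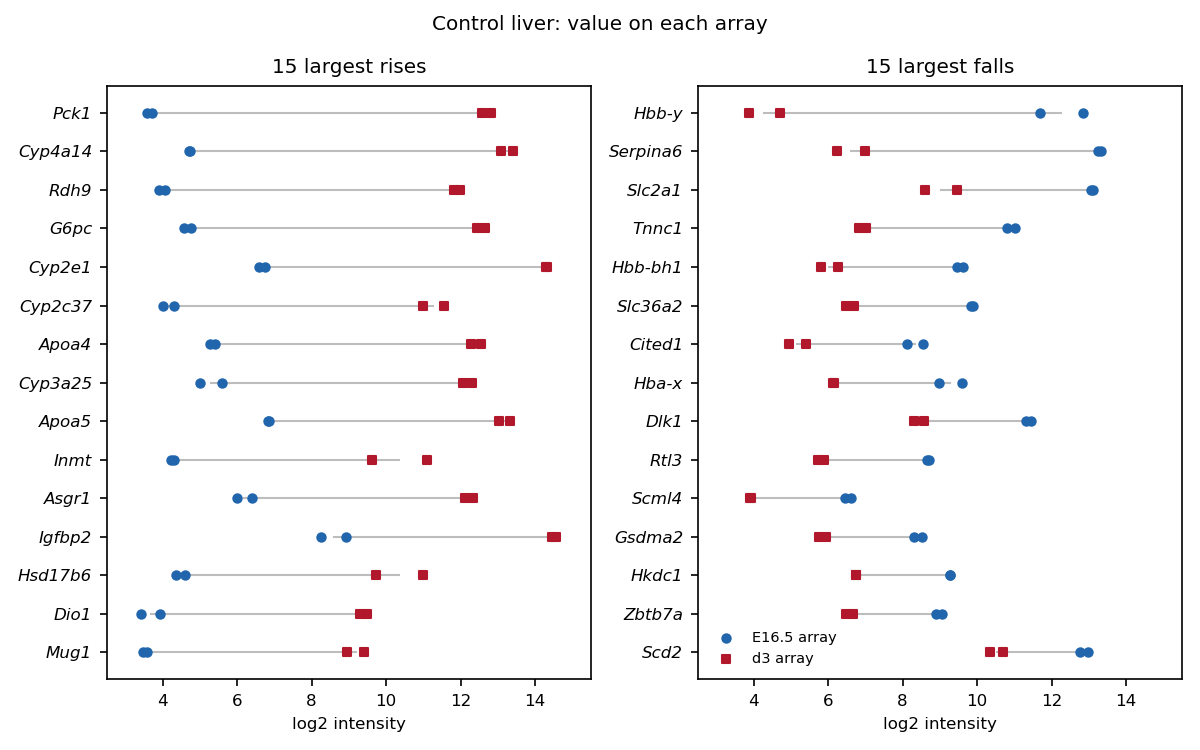
Log2 intensity on each control array of the 15 genes with the largest rise (left) and the 15 with the largest fall (right) among those called under both scalings whose ages do not overlap, a condition of the choice. Blue circles are the 2 arrays at E16.5, red squares the 2 at d3, and grey lines join the means; the 2 d3 arrays differ most for *Inmt* and *Hsd17b6*.

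Genes for the metabolism of foreign compounds, steroids and retinoids held many of the largest rises. Among the cytochrome P450 and oxidase genes 44 of 55 were higher and 2 lower (42 and 2 after quantile normalization), with a median of 1.53 and 1.30. *Cyp2e1*, which oxidizes ethanol and ketone bodies, read 6.75 and 6.58 at E16.5 against 14.32 and 14.29 at d3 (log2 fold change 7.63 ± 0.17, adjusted p = 2.3e-10). *Cyp2c37* read 4.01 and 4.30 at E16.5 against 11.54 and 10.98 at d3 and *Cyp3a25* read 5.60 and 5.01 at E16.5 against 12.06 and 12.31 at d3 (log2 fold changes 7.11 and 6.87, adjusted p = 5.33e-09 and 5.67e-09). These families hold close paralogs, and probe sets of the arrays may read more than 1 of them. *Cyp2c50*, *Cyp2j5* and *Cyp1a2* rose by 5.63, 5.31 and 5.25. Among the enzymes that act on steroids and retinoids, *Rdh9* read 3.91 and 4.07 at E16.5 against 11.83 and 11.99 at d3 (log2 fold change 7.92 ± 0.13, adjusted p = 2.68e-11) and *Hsd17b6* read 4.35 and 4.59 at E16.5 against 10.99 and 9.72 at d3 (log2 fold change 5.88 ± 0.31, adjusted p = 1.45e-07). The d3 arrays of *Hsd17b6* stood further apart than those of *Rdh9*, and *Inmt*, a methyltransferase of small amines, likewise read 4.22 and 4.29 at E16.5 against 9.62 and 11.09 at d3 (log2 fold change 6.10 ± 0.46, adjusted p = 2.24e-06).

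Among the conjugation and hydrolysis genes 39 of 50 were higher and 2 lower (36 and 4 after quantile normalization), with a median of 1.40 and 1.10. The sulfotransferase gene *Sult1c2* rose by 5.07 ± 0.32, *Glyat*, which joins acids to glycine, by 4.66 ± 0.16, the carboxylesterase gene *Ces1c* by 4.58 ± 0.25 and the glucuronosyltransferase gene *Ugt2b1* by 4.36 ± 0.24. *Dio1*, the deiodinase that activates thyroid hormone in liver, read 3.42 and 3.94 at E16.5 against 9.48 and 9.29 at d3 (log2 fold change 5.71 ± 0.18, adjusted p = 4.37e-09). Bile acid synthesis and transport rose for the most part: 27 of 32 were higher and 0 lower (26 and 0 after quantile normalization), with a median of 1.73 and 1.52, above the median of every other list apart from those taken from the study. *Slco1b2*, an uptake carrier for bile acids and organic anions, read 7.28 and 6.89 at E16.5 against 11.87 and 11.90 at d3 (log2 fold change 4.80 ± 0.22, adjusted p = 6.5e-08). *Slc10a1*, the sodium-coupled bile acid carrier of the blood side, was already expressed at E16.5 and read 10.23 and 9.93 at E16.5 against 13.08 and 13.15 at d3 (log2 fold change 3.03 ± 0.20, adjusted p = 9.5e-07). *Abcg5*, a part of the sterol pump of the canalicular membrane, rose by 4.32 ± 0.14, the aldo-keto reductase gene *Akr1c6* by 5.18 ± 0.17 and the epoxide hydrolase gene *Ephx1* by 3.41 ± 0.16.

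Among secreted proteins, several apolipoproteins had low values at E16.5 and high ones at d3. Among the apolipoprotein and lipid carrier genes 14 of 21 were higher and 0 lower (13 and 0 after quantile normalization). *Apoa4* read 5.26 and 5.39 at E16.5 against 12.54 and 12.29 at d3 (log2 fold change 7.09 ± 0.61, adjusted p = 5.44e-06) and *Apoa5*, which supports clearance of plasma triglyceride, read 6.83 and 6.85 at E16.5 against 13.34 and 13.03 at d3 (log2 fold change 6.34 ± 0.14, adjusted p = 2.3e-10). *Apoc3* rose by 4.45 ± 0.17. The standard error of *Apoa4* exceeds what its control arrays show, since it holds the spread of the Cnot3KO arrays too. *Asgr1*, the receptor that removes desialylated glycoproteins from blood, read 6.39 and 5.98 at E16.5 against 12.33 and 12.11 at d3 (log2 fold change 6.03 ± 0.19, adjusted p = 4.37e-09).

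Among the coagulation and fibrinolysis genes 28 of 30 were higher and 0 lower (25 and 0 after quantile normalization), and among the complement genes 21 of 24 were higher and 0 lower (21 and 1 after quantile normalization); their medians were 1.12 and 0.94, and 1.26 and 0.93. The clotting factor genes *F7* and *F9* rose by 2.53 ± 0.17 and 2.65 ± 0.24, *F13b* by 2.11 ± 0.27 and *Proz*, which encodes protein Z, by 2.27 ± 0.15. *Mbl2*, a mannose-binding lectin that starts complement activation, read 8.13 and 8.15 at E16.5 against 12.72 and 12.72 at d3 (log2 fold change 4.57 ± 0.16, adjusted p = 8.04e-09). The complement inhibitor gene *C4bp* and the protease gene *C1ra* rose by 2.90 and 2.40. Among acute phase genes 15 of 25 were higher and 2 lower (14 and 3 after quantile normalization). Those that rose included the protease inhibitor gene *Serpina3n* (5.37), *Fgl1* (4.32), *Apcs*, which encodes serum amyloid P (3.06), and the haptoglobin gene *Hp* (2.38), and those that fell were *Saa3*, a serum amyloid gene (−1.34), and the metallothionein gene *Mt2* (−0.59). *Hamp*, which encodes the iron hormone hepcidin, read 7.01 and 8.31 at E16.5 against 12.65 and 7.71 at d3: number 1 at d3 stood apart from the other 3 arrays and the gene was not called (adjusted p = 0.0826).

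The carriers of hormones in blood changed in opposite directions. *Serpina6*, which encodes corticosteroid-binding globulin, read 13.32 and 13.24 at E16.5 against 6.24 and 7.001 at d3 (log2 fold change −6.66 ± 0.22, adjusted p = 4.39e-09), the second largest fall of all genes. *Serpina7*, which encodes thyroxine-binding globulin, read 7.37 and 6.73 at E16.5 against 11.14 and 11.58 at d3 (log2 fold change 4.31 ± 0.29, adjusted p = 1.03e-06). Neither carrier had overlapping ages. The other carrier and storage proteins with the largest rises were *Mug1*, a protease inhibitor of mouse plasma (3.47 and 3.57 at E16.5 against 9.41 and 8.95 at d3), *Hrg*, the histidine-rich glycoprotein (4.62 ± 0.17), and *Pon1*, a lactonase carried on high-density lipoprotein (4.48 ± 0.29). Among the carrier and storage plasma proteins 25 of 35 were higher and 2 lower (25 and 2 after quantile normalization), and the lower genes were *Serpina6* and *A2m*, a protease inhibitor gene (−2.30).

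In the growth hormone and IGF axis 16 of 24 were higher and 2 lower (15 and 4 after quantile normalization). *Igfbp2*, a binding protein for insulin-like growth factors, read 8.93 and 8.26 at E16.5 against 14.55 and 14.46 at d3 (log2 fold change 5.91 ± 0.25, adjusted p = 2.6e-08). *Igf1*, the growth factor that growth hormone induces in liver, read 8.55 and 8.54 at E16.5 against 11.79 and 12.24 at d3 (log2 fold change 3.47 ± 0.21, adjusted p = 4.73e-07), and *Igfals*, which keeps it in circulation, rose by 2.79 ± 0.15. *Socs2*, an inhibitor of growth hormone signalling and a target of it, rose by 3.06 ± 0.16, and the insulin receptor adaptor *Grb14* by 2.53 ± 0.14. *Igf2*, the growth factor of the fetus, was not lower at d3: it read 14.07 and 13.99 at E16.5 against 14.48 and 14.44 at d3, with a log2 fold change of 0.43 (adjusted p = 0.017).

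Among the liver transcription factor genes 31 of 39 were higher and 0 lower (29 and 3 after quantile normalization), with a median of 0.99 and 0.80. *Nr1i3*, the constitutive androstane receptor that controls P450 genes, read 6.18 and 5.85 at E16.5 against 9.30 and 9.01 at d3 (log2 fold change 3.14 ± 0.15, adjusted p = 7.83e-08). The bile acid receptor gene *Nr1h4* and its target *Nr0b2*, a repressor of bile acid synthesis, rose by 2.09 ± 0.16 and 2.495 ± 0.15. *Esr1* and the glucocorticoid-induced factor gene *Klf9* rose by 2.83 ± 0.17 and 2.22 ± 0.20. Among clock genes 10 of 21 were higher and 3 lower (9 and 4 after quantile normalization): the output factor *Dbp* rose by 2.01 ± 0.16, the repressor *Nr1d2* by 2.02 ± 0.25 and *Rora* by 1.59 ± 0.21, whereas *Per1* fell by 0.98 ± 0.18 on the log2 scale. The hour at which the livers were taken is not given in the sources used here.

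Markers of both ends of the liver lobule rose. Among the pericentral genes 21 of 22 were higher and 0 lower (20 and 0 after quantile normalization), and among the periportal genes 14 of 17 were higher and 0 lower (13 and 1 after quantile normalization); their medians were 1.57 and 1.38, and 1.32 and 1.06. On the pericentral side *Cyp1a2* read 5.58 and 5.70 at E16.5 against 10.83 and 10.95 at d3 (log2 fold change 5.25 ± 0.14, adjusted p = 8.56e-10), and *Rnase4* and *Aldh1a1* rose by 3.79 ± 0.14 and 2.96 ± 0.21. On the periportal side *Cyp2f2* read 6.73 and 6.86 at E16.5 against 11.82 and 11.69 at d3 (log2 fold change 4.97 ± 0.25, adjusted p = 1.01e-07) and the urate oxidase gene *Uox* rose by 2.54 ± 0.20. RNA of whole livers does not show where in the lobule a transcript lay, and in bulk tissue fewer cells of a type cannot be told apart from less RNA per cell. The same holds for every list of cell markers that follows.

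**Figure D4:**
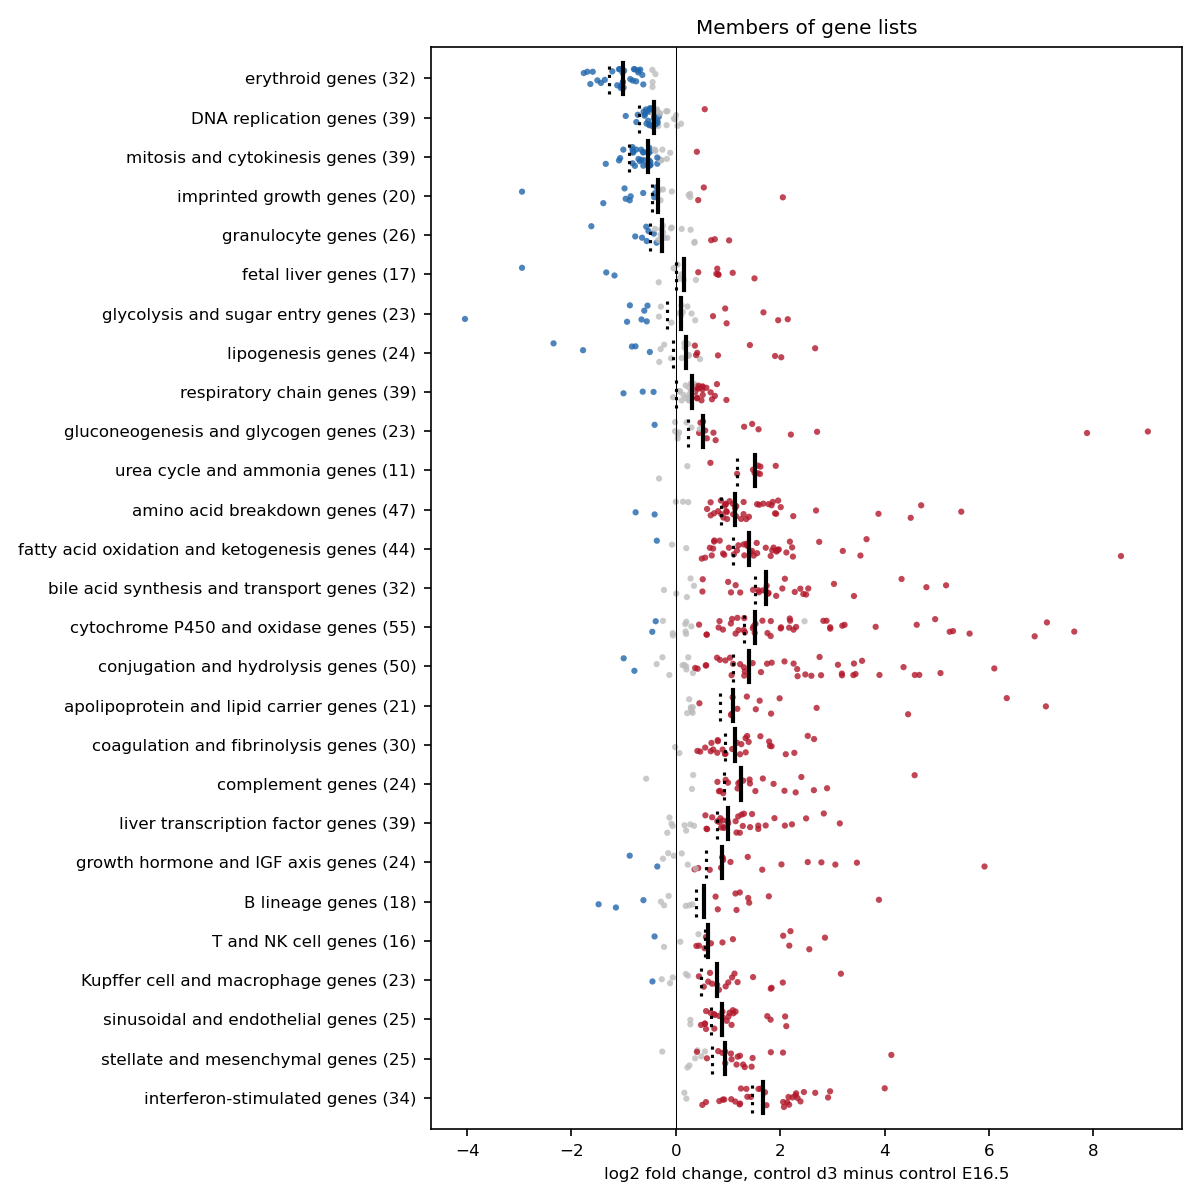
Log2 fold change (control d3 minus control E16.5) of each measured member of 27 gene lists, with the number of members tested in brackets. Red and blue points were called higher and lower with the deposited values, grey points were not called, solid bars mark the list median with the deposited values and dotted bars that after quantile normalization; the medians of the bile acid, P450 and fatty acid oxidation lists lie to the right of 0 and those of the erythroid and cell division lists to the left under both scalings.

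Genes used as signs of the immature liver did not fall together. Among the fetal liver genes 7 of 17 were higher and 3 lower (7 and 3 after quantile normalization), with a median of 0.15 and 0.00. *Afp*, the fetal counterpart of albumin, read 15.01 and 14.99 at E16.5 against 15.04 and 15.09 at d3 (log2 fold change 0.06, adjusted p = 0.673), near the top of the scale at both ages, 0.147 to 0.351 below the brightest value on the log2 scale. *Dlk1*, a surface protein of hepatoblasts, read 11.45 and 11.31 at E16.5 against 8.57 and 8.30 at d3 (log2 fold change −2.95 ± 0.14, adjusted p = 8.23e-08). The RNA-binding protein gene *Igf2bp1* and the chromatin protein gene *Hmga2*, both known from fetal tissue, fell, *Igf2bp1* from 8.42 and 8.78 at E16.5 to 7.31 and 7.23 at d3 and *Hmga2* from 7.69 and 7.75 at E16.5 to 6.52 and 6.58 at d3 (log2 fold changes −1.33 and −1.18, adjusted p = 5.21e-05 and 9.69e-05). *Krt19* and *Cd44*, also in that list, rose by 1.51 ± 0.22 and 1.09 ± 0.13. *Gpc3*, a fetal glypican, was not called (0.38, adjusted p = 0.074). Of the 6 measured genes that the study used for the immature liver, none was lower under either scaling with its brightest probe set: *Cd44* and *Igf2* were higher with the deposited values, and *Afp*, *Klf6*, *Bicc1* and *Aldoa* were not called (adjusted p from 0.374 to 0.817). *Aldoa* had 3 other probe sets of negative sign, reaching −0.41, and 1 of them was called, so no direction is given for it.

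Among 20 imprinted growth genes 10 were lower and 3 higher (13 and 2 after quantile normalization). Beside *Dlk1*, 2 noncoding transcripts of the same imprinted cluster fell, *Meg3* from 13.05 and 12.43 at E16.5 to 11.83 and 10.87 at d3 (log2 fold change −1.39, adjusted p = 0.00797) and *Mirg* from 8.81 and 7.60 at E16.5 to 7.14 and 7.36 at d3 (−0.96, adjusted p = 0.0244). The arrays of an age stood wide apart for both, although the ages did not overlap. *Cdkn1c*, an imprinted inhibitor of cell division, fell by 0.98 ± 0.21 on the log2 scale, and the amino acid transporter gene *Slc38a4* rose by 2.05 ± 0.17. *Rtl3*, which is derived from a retrotransposon, was among the 15 largest falls (8.67 and 8.72 at E16.5 against 5.73 and 5.89 at d3).

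Embryonic globins fell far more than other erythroid genes. *Hbb-y*, an embryonic beta-like globin gene, read 11.68 and 12.83 at E16.5 against 3.87 and 4.70 at d3 (log2 fold change −7.97 ± 0.40, adjusted p = 1.07e-07), the largest fall of all genes. *Hbb-bh1*, another embryonic beta-like gene, read 9.45 and 9.62 at E16.5 against 5.80 and 6.25 at d3, and *Hba-x*, the embryonic alpha-like gene, 8.97 and 9.58 at E16.5 against 6.13 and 6.16 at d3 (log2 fold changes −3.51 and −3.14, adjusted p = 2.07e-07 and 2.77e-07). The ages did not overlap for any of these, and number 1 was lower than number 2 at both ages for all of them. The adult alpha globin genes *Hba-a1* and *Hba-a2* were not called (−0.06 and 0.14, adjusted p = 0.802 and 0.548). The adult beta gene *Hbb-b2* had a log2 fold change of −0.95 (adjusted p = 0.00257) with its brighter probe set and 1.42 with another one that was called, so no direction is given for it. Adult globin genes exist in near-identical copies that probe sets may not separate.

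Of 32 erythroid genes none was higher and 28 were lower (32 after quantile normalization), with a median of −1.01 and −1.29. Their summed intensity was 200840 and 192630 at E16.5 against 94465 and 118738 at d3, a ratio of 0.542, and 0 members lay below the 20th percentile of both d3 arrays. *Tspo2*, which acts in cholesterol handling of maturing red cells, read 11.68 and 11.52 at E16.5 against 9.70 and 9.97 at d3 (log2 fold change −1.76 ± 0.16, adjusted p = 7.76e-06). The blood group genes *Icam4* and *Kel* fell from 11.51 and 11.41 at E16.5 to 9.63 and 9.90 at d3 and from 12.24 and 11.60 at E16.5 to 9.97 and 10.60 at d3 (log2 fold changes −1.70 and −1.64, adjusted p = 3.29e-05 and 0.0003). *Alas2*, the first enzyme of erythroid heme synthesis, and *Klf1*, a transcription factor of the erythroid lineage, fell by 1.12 ± 0.15 and 1.07 ± 0.18 on the log2 scale. Members ranged from −0.39 to −1.76 on the log2 scale, against −3.14 to −7.97 for the embryonic globins. The genes that were not called with the deposited values were *Tfrc*, *Uros*, *Bpgm* and *Gfi1b* (−0.45, −0.45, −0.39 and −0.45), which were chosen for naming after their values were seen.

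The promoters of the embryonic globin genes with the 2 largest falls among those with a RefSeq window show which letters they share with erythroid genes. Capitals mark GATAA, the core bound by GATA factors, CACCC, a core bound by Krüppel-like factors, and CCAAT, on either strand. *Hbb-y* (GRCm38.p6, chr7:103853158-103853457, minus strand) held 1 of each, and *Hba-x* (chr11:32276350-32276649, plus strand) held 1 GATAA and 2 CACCC on these strands. The letters GATAA were in the windows of 14 of 27 (51.9%) of the erythroid genes, against 2410 of 13269 (18.2%) of all genes tested. For CACCC the counts were 21 of 27 (77.8%) and 8377 of 13269 (63.1%), and for CCAAT 11 of 27 (40.7%) and 5037 of 13269 (38.0%). A match is a description of the letters, not a bound site.
Hbb-y: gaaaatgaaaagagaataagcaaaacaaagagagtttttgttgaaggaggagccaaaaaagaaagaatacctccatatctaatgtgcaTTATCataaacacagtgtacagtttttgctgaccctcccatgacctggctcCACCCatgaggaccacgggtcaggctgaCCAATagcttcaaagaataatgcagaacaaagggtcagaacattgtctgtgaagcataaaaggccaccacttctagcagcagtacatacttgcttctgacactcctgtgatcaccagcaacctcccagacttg
Hba-x: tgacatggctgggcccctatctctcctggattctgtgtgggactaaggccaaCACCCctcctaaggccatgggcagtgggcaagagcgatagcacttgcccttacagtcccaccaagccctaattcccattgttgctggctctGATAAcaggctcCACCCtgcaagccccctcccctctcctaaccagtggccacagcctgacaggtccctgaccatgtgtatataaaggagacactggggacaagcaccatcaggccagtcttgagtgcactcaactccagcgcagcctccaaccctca

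Genes of cell division fell by smaller amounts. Among the DNA replication genes 1 of 39 were higher and 24 lower (1 and 36 after quantile normalization), and among the mitosis and cytokinesis genes 1 of 39 were higher and 30 lower (0 and 38 after quantile normalization), with medians of −0.42 and −0.70, and −0.54 and −0.89. *Cdc6*, which loads the replicative helicase, read 10.47 and 10.50 at E16.5 against 9.19 and 9.85 at d3 (log2 fold change −0.96 ± 0.18, adjusted p = 0.00155), and the DNA ligase gene *Lig1* fell by 0.76 ± 0.15 on the log2 scale. *Cit*, the citron kinase of cytokinesis, read 9.79 and 9.84 at E16.5 against 8.30 and 8.65 at d3 (log2 fold change −1.34 ± 0.14, adjusted p = 2.15e-05). *Plk1*, a kinase of mitotic entry, read 10.28 and 10.40 at E16.5 against 9.25 and 9.42 at d3, and *Bub1*, of the spindle checkpoint, 10.51 and 10.15 at E16.5 against 9.03 and 9.49 at d3 (log2 fold changes −1.01 and −1.07, adjusted p = 0.000135 and 0.000461). Number 2 at d3 was higher than number 1 for *Cdc6*, *Cit*, *Plk1* and *Bub1*. The higher genes were *Rfc3*, of the clamp loader (0.55), and *Pttg1*, which encodes securin (0.40, and 0.03, adjusted p = 0.836 after quantile normalization), both chosen for naming after their values were seen. Of the 8 measured cell cycle genes named by the study, 4 were lower with the deposited values and 6 after quantile normalization. These were *Cdc25b* (−1.12), *Kif23* (−0.63), *Ect2* (−0.62) and *Cdt1* (−0.42), joined after quantile normalization by *Brca1* (−0.62) and *Chek1* (−0.57), while *Cdc25a* and *Iqgap1* were not called under either, although another probe set of *Iqgap1* was called at −0.61. Erythroblasts divide in fetal liver and the erythroid list fell at the same time, with the ratio of 0.542 given above, and the part of those cells in the fall of the division genes was not tested. Among the cell cycle inhibitors and hepatocyte exit genes 6 of 27 were higher and 6 lower (4 and 14 after quantile normalization), with a median of −0.04 and −0.40. In that list *Tob1* and *Btg1*, which restrain proliferation, rose by 1.77 ± 0.13 and 1.13 ± 0.12, while *Chek2* and *Cdkn1c* fell (−0.78 and −0.98). *Myc*, from the ribosome biogenesis and growth list, fell by 0.65 ± 0.13 on the log2 scale.

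Promoters of mitotic genes carry a well-known pair of elements, the CCAAT box and the cell cycle homology region, TTTGAA. They are shown for *Plk1* (GRCm38.p6, chr7:122159185-122159484, plus strand) and *Top2a* (chr11:99024140-99024439, minus strand), the members called with the largest change whose window held TTTGAA, with both elements in capitals on either strand. *Plk1* held 1 of each and *Top2a* held 2 TTTGAA and 6 CCAAT on both strands together. The letters TTTGAA were in the windows of 24 of 32 (75%) of the mitosis and cytokinesis genes, against 6 of 33 (18.2%) of the DNA replication genes and 1685 of 13269 (12.7%) of all genes tested, and CCAAT in 23 of 32 (71.9%), 19 of 33 (57.6%) and 5037 of 13269 (38.0%). *Top2a*, the topoisomerase of chromosome separation, read 12.05 and 11.96 at E16.5 against 10.998 and 11.35 at d3 (log2 fold change −0.83 ± 0.14, adjusted p = 0.00075), but another of its probe sets rose by 0.36 and was called.
Plk1: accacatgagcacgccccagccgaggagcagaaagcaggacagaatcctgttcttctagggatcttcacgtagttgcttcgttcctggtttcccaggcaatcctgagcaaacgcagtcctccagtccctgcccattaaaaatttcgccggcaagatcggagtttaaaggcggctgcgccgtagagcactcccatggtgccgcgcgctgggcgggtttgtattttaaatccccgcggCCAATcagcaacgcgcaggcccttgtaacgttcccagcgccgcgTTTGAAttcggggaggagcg
Top2a: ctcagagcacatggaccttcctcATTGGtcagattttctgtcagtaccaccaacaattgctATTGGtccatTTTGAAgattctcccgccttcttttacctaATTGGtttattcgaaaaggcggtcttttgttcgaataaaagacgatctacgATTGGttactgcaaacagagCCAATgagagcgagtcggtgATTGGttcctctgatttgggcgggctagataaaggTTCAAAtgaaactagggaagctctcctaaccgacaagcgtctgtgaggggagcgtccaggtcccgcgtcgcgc

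Genes of other blood lineages were called in both directions, as were the genes tested as a whole. Of all genes tested 32.5% were higher and 13.8% lower (23.8% and 26.0% after quantile normalization), and the counts below are read beside these shares. Among the granulocyte genes 3 of 26 were higher and 8 lower (3 and 14 after quantile normalization), with summed intensities of 77615 and 80488 at E16.5 against 62738 and 77287 at d3. The higher genes were the mast cell and basophil protease genes *Cpa3* and *Mcpt8* and the macrophage and eosinophil gene *Chil3*. The neutrophil genes *S100a8* and *Ngp* were not called (−0.22 and −0.25, adjusted p = 0.181 and 0.19), although *Ngp* was lower after quantile normalization (−0.48, adjusted p = 0.0115), *Mpo* fell by 0.65 ± 0.13 on the log2 scale and the eosinophil granule gene *Prg2* by 1.62 ± 0.44. Among the megakaryocyte and platelet genes 4 of 17 were higher and 4 lower (2 and 8 after quantile normalization), and among the stem and progenitor cell genes 4 of 18 were higher and 5 lower (4 and 6 after quantile normalization). In the latter *Kit*, the receptor for stem cell factor, and *Runx1*, a blood transcription factor, fell from 9.18 and 9.38 at E16.5 to 8.13 and 8.38 at d3 and from 7.59 and 7.83 at E16.5 to 6.92 and 6.76 at d3 (adjusted p = 0.000204 and 0.000784). *Hhex*, which hepatocytes also express, rose by 1.16 ± 0.17.

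In the B lineage list 9 of 18 were higher and 3 lower (9 and 4 after quantile normalization). *Ms4a1*, which encodes CD20 of mature B cells, read 5.31 and 5.18 at E16.5 against 9.34 and 8.93 at d3 (log2 fold change 3.89 ± 0.15, adjusted p = 1.33e-08), and the immunoglobulin heavy chain gene *Ighm* rose by 1.78 ± 0.17. The surrogate light chain gene *Vpreb1* of precursor B cells fell from 8.67 and 8.77 at E16.5 to 6.88 and 7.60 at d3 (log2 fold change −1.48 ± 0.32, adjusted p = 0.00314). The other lower genes of this list, *Igll1* and *Rag2*, also belong to precursor B cells (−1.15 and −0.62). Among the T and NK cell genes 12 of 16 were higher and 1 lower (10 and 1 after quantile normalization), with summed intensities of 1220 and 1468 at E16.5 against 4425 and 4310 at d3. The granule protease gene *Gzma* read 8.13 and 8.80 at E16.5 against 11.04 and 11.004 at d3, the chemokine gene *Ccl5* 6.49 and 6.67 at E16.5 against 9.56 and 9.32 at d3, and *Cd3g*, of the T cell receptor complex, 4.58 and 4.72 at E16.5 against 6.87 and 6.81 at d3 (log2 fold changes 2.56, 2.86 and 2.20, adjusted p = 1.56e-06, 6.57e-08 and 1.76e-06).

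Genes of the cells that line the sinusoids rose. Among the Kupffer cell and macrophage genes 17 of 23 were higher and 1 lower (14 and 3 after quantile normalization), among the sinusoidal and endothelial genes 23 of 25 were higher and 0 lower (18 and 0 after quantile normalization), and among the stellate and mesenchymal genes 18 of 25 were higher and 0 lower (17 and 0 after quantile normalization). *Vsig4*, a complement receptor of Kupffer cells, read 8.29 and 7.72 at E16.5 against 11.19 and 11.14 at d3 (log2 fold change 3.16 ± 0.22, adjusted p = 1.03e-06), and *Clec4f* and *Marco*, surface receptors of the same cells, rose by 1.82 ± 0.20 and 2.05 ± 0.15. *Cd5l*, another macrophage marker, was called with the deposited values only (0.54, adjusted p = 0.00546, and 0.16, adjusted p = 0.26 after quantile normalization). Among endothelial genes *Ptprb* and *Clec4g* rose by 2.12 ± 0.15 and 2.09 ± 0.21, and *Wnt2*, a signal from central endothelium to hepatocytes, by 1.75 ± 0.13. The sinusoidal markers *Stab2* and *Lyve1* were called with the deposited values only (0.56 and 0.58, adjusted p = 0.0184 and 0.0125). *Rgs5*, a pericyte gene, read 4.30 and 4.26 at E16.5 against 7.96 and 8.86 at d3 (log2 fold change 4.13 ± 0.41, adjusted p = 1.51e-05), while the stellate markers *Reln* and *Des* were not called (adjusted p = 0.0666 and 0.196) and *Lrat* rose by 1.23 ± 0.12.

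Among the cholangiocyte genes 7 of 14 were higher and 2 lower (7 and 2 after quantile normalization). *Pkhd1*, whose product is fibrocystin of the bile duct cilium, read 5.20 and 4.99 at E16.5 against 8.06 and 7.79 at d3 (log2 fold change 2.83 ± 0.15, adjusted p = 1.94e-07). *Ehf* and *Tspan8*, which epithelia of several organs express, fell from 6.57 and 6.63 at E16.5 to 5.23 and 5.14 at d3 and from 10.71 and 10.30 at E16.5 to 8.89 and 9.501 at d3. Of the genes that define bile duct cells, *Krt19*, which is also in the fetal liver list, rose by 1.51 ± 0.22. *Krt7* and *Epcam* were not called (0.40, adjusted p = 0.0642, and 1.26, adjusted p = 0.114). The keratin gene *Krt18* of the same list rose by 1.79 ± 0.16.

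Nearly all interferon-stimulated genes rose: 32 of 34 were higher and 0 lower (32 and 0 after quantile normalization), with a median of 1.67 and 1.46. *Ddx58* and *Mx2* were not called (0.16 and 0.20). *Cxcl9*, a chemokine induced by interferon gamma, read 3.82 and 4.36 at E16.5 against 7.87 and 8.32 at d3 (log2 fold change 4.002 ± 0.19, adjusted p = 8.23e-08). *Oasl2*, an antiviral gene, read 4.15 and 4.24 at E16.5 against 6.84 and 7.46 at d3, and *Ifit1*, whose product binds viral RNA, 4.69 and 5.04 at E16.5 against 7.32 and 8.24 at d3 (log2 fold changes 2.96 and 2.92, adjusted p = 1.63e-06 and 9.27e-06), and the antiviral enzyme *Rsad2* 10.45 and 10.49 at E16.5 against 12.66 and 13.18 at d3 (log2 fold change 2.45 ± 0.24, adjusted p = 1.62e-05). Number 2 was the higher of the d3 arrays for each of these 4 genes, and both d3 arrays were above both E16.5 arrays. Of the 5 genes the study grouped as immune genes 4 rose, *Cxcl10* by 2.33 ± 0.24, *Nlrc5*, which controls MHC class I genes, by 2.24 ± 0.17, *Irf7* by 1.58 ± 0.13 and *Herc6* by 1.25 ± 0.25, and *Hamp* was the exception. *B2m*, the MHC class I light chain, listed here as a reference gene, rose from 12.55 and 12.39 at E16.5 to 13.69 and 13.77 at d3. Macrophage, T and NK cell genes rose in the same arrays, with the counts given above, and their part in the rise was not tested.

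Interferon-regulated promoters are shown for *Cxcl9* (GRCm38.p6, chr5:92328030-92328329, minus strand) and *Ifit1* (chr19:34640639-34640938, plus strand), the list members with the largest change whose window held GAAANNGAA, the core of the element bound by interferon regulatory factors, in capitals on either strand. *Cxcl9* held 1 match and *Ifit1* 3, of which 2 overlap. The letters were in the windows of 16 of 26 (61.5%) of the interferon-stimulated genes and of 962 of 13269 (7.25%) of all genes tested.
Cxcl9: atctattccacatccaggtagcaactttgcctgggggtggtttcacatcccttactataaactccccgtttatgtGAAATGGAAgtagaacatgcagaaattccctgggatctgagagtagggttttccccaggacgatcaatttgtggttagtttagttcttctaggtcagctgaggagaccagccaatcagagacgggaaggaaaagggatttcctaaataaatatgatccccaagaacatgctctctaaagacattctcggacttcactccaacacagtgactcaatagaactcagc
Ifit1: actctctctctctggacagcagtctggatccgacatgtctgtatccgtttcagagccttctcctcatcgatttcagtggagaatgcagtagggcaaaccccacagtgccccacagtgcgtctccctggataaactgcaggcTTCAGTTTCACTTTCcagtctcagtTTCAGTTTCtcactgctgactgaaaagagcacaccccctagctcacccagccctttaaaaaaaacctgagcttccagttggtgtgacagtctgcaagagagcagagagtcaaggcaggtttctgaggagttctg

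Markers of other organs were called in part. Among the intestinal epithelium genes 3 of 17 were higher and 1 lower (3 and 4 after quantile normalization): those that rose were *Apoa4* and *Fabp2*, which young liver also expresses, and *Reg3b*, and *Muc13* fell. *Fabp2*, a fatty acid binding protein, read 7.59 and 7.32 at E16.5 against 10.99 and 10.70 at d3 (log2 fold change 3.39 ± 0.23, adjusted p = 1.07e-06), whereas *Cdh17* and *Lgals4*, which define the epithelium, were not called (adjusted p = 0.382 and 0.597). Among the pancreatic acinar genes 1 of 15 were higher and 2 lower (1 and 3 after quantile normalization): *Amy1*, an amylase gene, rose by 2.33 ± 0.26, the trypsin inhibitor gene *Spink1* and the trypsinogen gene *Prss2* fell by 1.71 ± 0.17 and 0.66 ± 0.17 on the log2 scale, and *Cpa1* was not called (adjusted p = 0.582). *Tnnc1*, troponin C of slow and cardiac muscle, read 10.81 and 11.02 at E16.5 against 6.82 and 7.03 at d3 (log2 fold change −3.99 ± 0.18, adjusted p = 4.17e-08), the fourth largest fall. Among the skeletal muscle genes 0 of 13 were higher and 3 lower (0 and 3 after quantile normalization), namely *Mylpf*, *Myh3* and *Myl1*, and *Acta1* was not called (adjusted p = 0.416). Among the adipose genes 2 of 7 were higher and 0 lower (2 and 0 after quantile normalization), namely *Fabp4*, a fatty acid binding protein gene that endothelium and macrophages also express (log2 fold change 1.31 ± 0.25, adjusted p = 0.00142), and *Cidec*, of lipid droplets (log2 fold change 0.65 ± 0.22, adjusted p = 0.0329).

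The other genes among the 15 largest falls were *Slc36a2*, a transporter of small amino acids (9.89 and 9.83 at E16.5 against 6.47 and 6.68 at d3), *Cited1*, a transcriptional coactivator (8.11 and 8.54 at E16.5 against 5.40 and 4.94 at d3), *Scml4*, related to Polycomb proteins (6.61 and 6.45 at E16.5 against 3.91 and 3.92 at d3), *Gsdma2*, a gasdermin gene (8.30 and 8.52 at E16.5 against 5.94 and 5.76 at d3), and *Zbtb7a*, a transcriptional repressor (8.90 and 9.06 at E16.5 against 6.47 and 6.67 at d3). The choice required that ages did not overlap, and another probe set of *Gsdma2* rose by 0.55 and was called.

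In the Cnot complex and mRNA decay list 9 of 30 were higher and 4 lower (5 and 11 after quantile normalization), with medians of 0.05 and −0.16. *Cnot3* read 8.39 and 8.23 at E16.5 against 8.35 and 8.28 at d3 with its brighter probe set (log2 fold change 0.00, adjusted p = 0.981), and its other probe set fell by 0.67 on the log2 scale and was called, so no direction is given. Of the other subunits *Cnot6l*, a catalytic deadenylase, rose by 0.71 ± 0.14 and stayed called after quantile normalization (0.37, adjusted p = 0.0325), *Cnot7* was called with the deposited values only (0.47), and *Cnot2*, *Cnot4*, *Cnot6*, *Cnot8*, *Cnot9*, *Cnot10* and *Cnot11* were not called with them (log2 fold changes from −0.08 to 0.24), of which *Cnot6* and *Cnot11* were lower after quantile normalization (−0.33 and −0.34). *Cnot4*, *Cnot6* and *Cnot11* each had 1 other probe set of opposite sign that was called, with extremes of −0.54, −0.49 and 0.925, so no direction is given for these genes either. *Pabpc4*, a poly(A)-binding protein gene, fell from 12.62 and 12.49 at E16.5 to 11.55 and 11.63 at d3 (log2 fold change −0.96 ± 0.13, adjusted p = 0.000175). Among the respiratory chain genes 18 of 39 were higher and 3 lower (5 and 3 after quantile normalization), with a median of 0.30 and 0.00. The complex I gene *Ndufs4* was called under both scalings (0.97), and *Cox7a1*, an isoform of heart and muscle, fell from 6.03 and 6.15 at E16.5 to 5.04 and 5.13 at d3. Among the ribosome biogenesis and growth genes 1 of 22 were higher and 4 lower (1 and 15 after quantile normalization), with *Nop56*, a nucleolar protein gene, lowest (−0.80).

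Among the iron handling genes 12 of 22 were higher and 2 lower (8 and 3 after quantile normalization). *Tfr2*, which senses iron, and *Tmprss6*, which restrains hepcidin, rose by 2.23 ± 0.15 and 1.87 ± 0.15. *Cp* and *Hpx*, which encode ceruloplasmin and hemopexin, rose by 1.63 ± 0.13 and 1.46 ± 0.14. Among the p53 target genes 9 of 23 were higher and 4 lower (8 and 6 after quantile normalization), with *Fas*, a death receptor, highest (6.02 and 6.18 at E16.5 against 8.85 and 8.90 at d3). In the unfolded protein and stress list 18 of 30 were higher and 3 lower (13 and 6 after quantile normalization). *Asns*, asparagine synthetase, fell from 12.42 and 12.49 at E16.5 to 11.24 and 11.31 at d3, and the immediate early gene *Fos* and the heat shock gene *Hspa1b* rose with wide d3 arrays (6.47 and 6.49 at E16.5 against 7.58 and 8.68 at d3, and 6.04 and 6.05 at E16.5 against 7.27 and 8.10 at d3).

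Genes often used as references were mixed. *Actb*, *Eef1a1*, *Rps18* and *Rpl13a* had log2 fold changes from −0.05 to 0.08 with the deposited values, and none of these probe sets was called under either scaling, but *Rpl13a* had 2 other probe sets that were called lower, with an extreme of −0.74. *Hprt* and *Pgk1* were near 0 with the deposited values (0.03 and −0.08) and lower after quantile normalization (−0.35, adjusted p = 0.0273, and −0.46, adjusted p = 0.00644). Among the reference genes 3 of 14 were higher and 1 lower (1 and 4 after quantile normalization), and *B2m* rose most (log2 fold change 1.27 ± 0.15, adjusted p = 4.89e-05).

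The change with age was compared with that in Cnot3KO livers, which share no array with it but share its ages and its fit. The mean log2 intensity of the Cnot3KO arrays was 6.53 and 6.54 at E16.5 against 6.67 and 6.66 at d3, as in controls. A scaling or batch shared by the arrays of an age would enter both genotypes, so agreement in direction cannot separate it from age. With the same probe set as above *Cnot3* read 8.44 and 8.19 at E16.5 against 7.96 and 8.16 at d3 in Cnot3KO livers, and where that probe set lies relative to the deleted part is not known. Of the 3974 genes higher in control livers under both scalings, 97.1% were also higher under both scalings in Cnot3KO livers. With the deposited values 3535 of them were called higher there. Of the 2291 lower genes 94.8% were lower under both scalings in Cnot3KO livers, and 1749 were called lower with the deposited values. The shares of all genes tested that were higher or lower in Cnot3KO livers are not given beside these. How these counts compare with those shares is therefore not known. *Pck1* rose by 9.56 in Cnot3KO livers against 9.04 in controls, *Cyp4a14* by 8.33 against 8.53, and *Hbb-y* had −7.80 against −7.97. The difference between the genotypes in the age effect, tested as an interaction in limma, was called for 439 genes (2.63% of 16667), with a larger value in Cnot3KO livers for 399 and a smaller one for 40. After quantile normalization these counts were 279 and 48, and 307 genes were called in the same direction under both scalings. Of the genes that rose in control livers under both scalings, 233 differed, 199 with a larger and 34 with a smaller value in Cnot3KO livers, of which 7 were below 0 there. Of those that fell, 34 differed, all with a larger value in Cnot3KO livers: 6 fell by less and 28 had a value above 0. Both sets were chosen by the control change that the difference also subtracts. The choice by itself favours a larger value among falls and a smaller one among rises. Both Cnot3KO arrays at d3 were female-like by *Xist*, whereas each other group held 1 array of each kind, and the part of sex in a difference was not tested. Since the study found Cnot3 loss only partial at E16.5, the extent of the loss also differs between the ages of the Cnot3KO livers. Without number 1 of the d3 Cnot3KO arrays, the genes with a larger and a smaller value numbered 119 and 5.

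**Figure D5:**
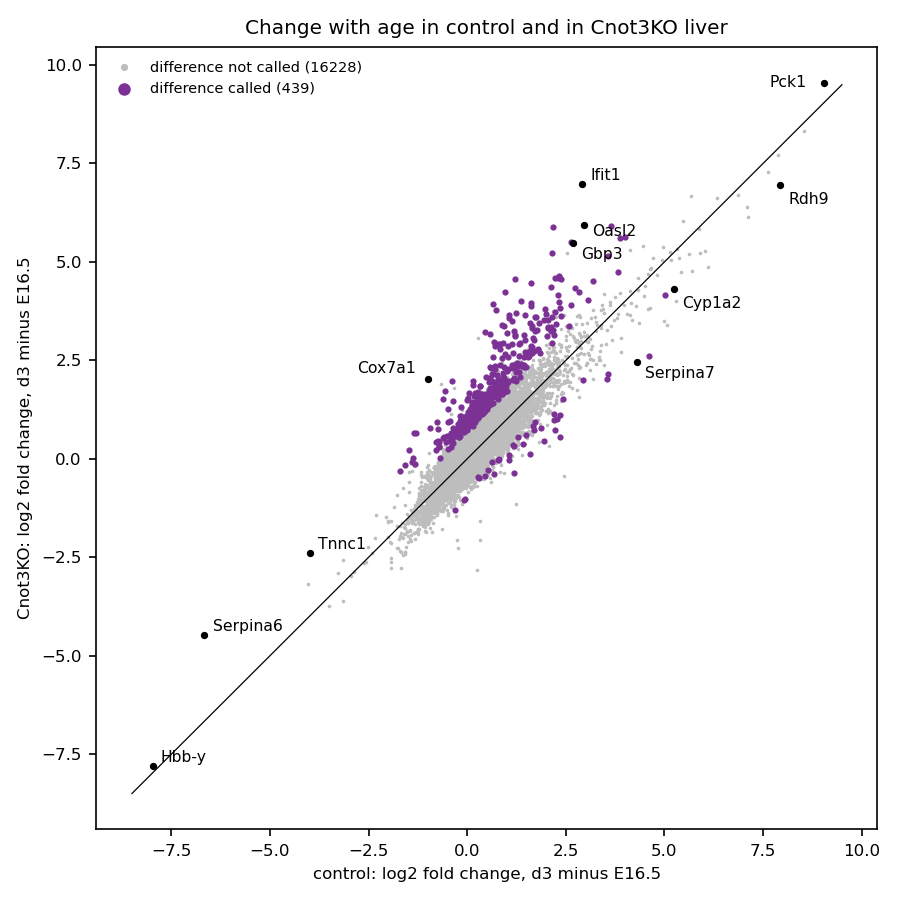
Log2 fold change with age (d3 minus E16.5) in Cnot3KO livers against that in control livers for 16667 genes, 2 arrays per group. Purple points are the 439 genes whose difference was called, the line marks equal change, and black points are named genes; most genes lie along the line and most called differences lie above it.

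Among the genes with the largest changes some differed between the genotypes. *Serpina7* rose by 2.47 in Cnot3KO livers, less than in controls (difference −1.84 ± 0.41, adjusted p = 0.0424), a difference that was not called after quantile normalization (adjusted p = 0.0741), and *Tmprss6*, *Rdh9* and *Cyp1a2* also rose less, with differences of −1.08, −0.98 and −0.93. *Serpina6* fell by less (difference 2.18 ± 0.31, adjusted p = 0.00472), its Cnot3KO arrays reading 13.44 and 13.41 at E16.5 against 8.74 and 9.16 at d3. The interferon-stimulated genes *Ifit1*, *Oasl2* and *Gbp3* rose further in Cnot3KO livers, by 6.97, 5.93 and 5.49 against 2.92, 2.96 and 2.67 in controls.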

How the data were processed

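The authors extracted total RNA from livers with ISOGEN II, hybridized biotin-labelled cRNA to an Affymetrix mouse GeneChip and, per their methods, processed the arrays with RMA and filtered at the 20th percentile in GeneSpring. The deposited table holds RMA intensities on a linear scale, although log2 values had been assumed when the tests were set, so log2 was taken of them. Of 45037 probe sets, 38440 reached the 20th percentile of at least 1 array and 6597 were removed. The platform annotation gave 34945 probe sets 1 symbol, 932 several and 9160 none. Of those with 1 symbol, 34741 matched RefSeq by gene number and 204 did not. Probe sets with several or no symbols were left out, and the brightest probe set stood for each of 16667 genes.

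Groups came from the labels. limma 3.58.1 in R 4.3.3 fitted 4 groups of 2 arrays, with 4 residual degrees of freedom, and all adjusted p-values are limma's after Benjamini-Hochberg correction. Its script was tested on simulated data. The control contrast and the interaction were repeated after quantile normalization of the 8 arrays, median centring and 75th percentile centring. They were also repeated with other filters, probe set rules, variance priors and weights, without each array and with the array number as a block. Only the control contrast was repeated with the 4 control arrays quantile normalized or fitted alone, with fold thresholds and with the methods' t-test.

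The members and all gene lists were chosen with earlier results of these data known. Genes are named by rule: the 15 largest rises and the 15 largest falls among genes called under both scalings whose ages do not overlap, up to 5 called genes of each list that changed most, members that were not called as context, genes that the study had picked for its own assays, Cnot subunits, reference genes and fixed cell markers. The lower or higher exceptions of a list were named after their values were seen, namely *Gpt2*, *Plin4*, *Saa3*, *Mt2*, *A2m*, *Rfc3*, *Pttg1*, *Igll1* and *Rag2*. Medians are given for part of the lists, and those of all genes are given once. No set test was run. Promoter windows are RefSeq's for GRCm38.p6, the first listed for a gene, and 13269 genes had one. The windows printed belong to the called members of a list with the largest change whose window held the first motif named for it. Genes on chr18 were left out of this choice. Python 3.11.15 with pandas 2.3.3 and matplotlib 3.10.9 was used for lists and figures.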

Additional observations from a re-analysis of the deposited data

Results flagged for a closer look

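These 21 named genes had a change with age that differed between Cnot3KO and control livers by the interaction term of limma (adjusted p under 0.05), and the values are the age effect in Cnot3KO minus that in control livers on the log2 scale, 2 arrays per group. After quantile normalization 17 of them were called as well, and *Serpina7*, *Lrg1*, *Gzmb* and *Krt18* were not (adjusted p = 0.0741, 0.076, 0.0659 and 0.0578). Both d3 Cnot3KO arrays were female-like by *Xist*, and the part of sex was not tested.

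Smaller values in Cnot3KO livers were found for *Serpina7* (−1.84), *Tmprss6* (−1.08), *Rdh9* (−0.98), *Cyp1a2* (−0.93) and *Hlf* (−0.80), all of which rose with age in control livers. *Hlf* encodes a transcription factor of stem cells and of the clock output, and the others act in hepatocytes as described above.

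Among interferon-stimulated and immune genes the difference was 4.06 for *Ifit1*, 2.98 for *Oasl2*, 2.82 for *Gbp3*, 2.47 for *Herc6*, 2.30 for *Cxcl10*, 1.86 for *Irf7*, 1.63 for *Cxcl9* and 1.48 for *Nlrc5*. All of these rose in control livers and rose further in Cnot3KO livers. The granule protease gene *Gzmb* had 1.10.

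The other genes with a larger value were *Cox7a1* (3.02), *Serpina6* (2.18), *Lrg1* (1.73), *Tnnc1* (1.59), *Spink1* (1.41), *Nfil3* (1.27) and *Krt18* (1.00). *Serpina6*, *Tnnc1*, *Spink1* and *Cox7a1* fell in control livers. In Cnot3KO livers their change was −4.48, −2.40, −0.30 and 2.02, so that *Cox7a1* went from a fall to a rise, with arrays at 6.45 and 6.37 at E16.5 against 8.92 and 7.94 at d3.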

How the results depend on the processing

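The genes higher at d3 numbered 5415 with the deposited values, 3503 after centring on the 75th percentile, 1589 when the change also had to exceed 2-fold, 1473 with limma's test against 1.5-fold and 577 with the methods' t-test after Benjamini-Hochberg correction. The lower genes numbered 2293, and under the same settings 4231, 265, 200 and 118, with 4337 after quantile normalization of the 8 arrays and 4077 after that of the 4 control arrays. Without correction the methods' t-test gave 4618 and 1693. Leaving out each array in turn gave 4157 to 5860 higher and 1418 to 2614 lower genes. The genes whose change with age had a larger value in Cnot3KO livers numbered 399, with 190 after centring on the 75th percentile, 599 with a trended and robust prior, and 119 to 592 without single arrays. Those with a smaller value numbered 40, with 75 under the trended prior and 5 to 122 without single arrays.

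Of the 277 named genes, 265 kept their side of the threshold after quantile normalization and 277 with array weights. A gene called under neither setting counts as kept even where its sign turned. After quantile normalization this was so for *Aldoa*, *Cdc25a*, *Iqgap1*, *Ivd* and *Bicc1*, among others. The turned directions that were called under either of the settings compared all belonged to small changes or to genes with several probe sets. After quantile normalization *Cnot6* was at −0.33 and *Hprt* at −0.35, and at −0.35 with the 4 control arrays alone. With the mean over probe sets *Cnot11* was at 0.38, *Cnot3* at −0.33, *Hbb-b2* at 0.24 and *Rpl13a* at −0.32. With the probe set of largest variance *Cnot11* was at 0.925, *Cnot3* at −0.67, *Cnot4* at −0.54, *Cnot6* at −0.49, *Hbb-b2* at 1.42, *Iqgap1* at −0.61 and *Rpl13a* at −0.74. The cause was not tested. Of 53 list medians 9 changed sign with quantile normalization, whose largest shift was 0.37.

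With the array number as a replicate block, 5371 genes were higher and 2257 lower, and the interaction was called for 400 and 43. Deviations of same-numbered control arrays correlated at −0.02 over all genes, which does not settle whether the numbers pair the arrays. In controls number 1 was male-like and number 2 female-like at both ages, so there the block also splits the arrays by sex. With the block 275 of the 277 named genes kept their call.

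With 2 arrays per age the smallest changes called are near the spread of the arrays, and falls under 2-fold depend on the scaling, as the counts show. Probe sets near the top of the scale, such as those of *Alb* and *Afp*, leave little room for a rise, and those near its low end give no level.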
